A study of Mus musculus with 24 samples.

Results

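The comparison described here set C2C12 cells given ANGPTL4 protein during differentiation against cells given vehicle, both collected at day 6. It used the 8 libraries that the labels place in those 2 groups, 4 in each, out of 24 libraries in the series. C2C12 is a mouse myoblast line, labelled WT, whose cells stop dividing and fuse into myotubes when serum is lowered. Differentiation was started in all groups by exchanging the 10% fetal bovine serum of the growth medium, DMEM, for 2% horse serum, and ANGPTL4, a recombinant protein of mouse sequence, was given at 10 ng/mL. What the vehicle contained was not given in the sources used here. The other groups held cells given vehicle or ANGPTL4 and collected at day 2, and cells given 100 µM linoleic acid (LA) bound to albumin and collected at either day. The submitters state that the study asked which genes and pathways respond to LA and to ANGPTL4. The cells are a single line grown in culture, and no label says whether the 4 libraries of a group came from separate cultures, so every p-value below measures only the spread between these libraries.

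ANGPTL4 (angiopoietin-like protein 4) is secreted by fat, muscle, liver and other tissues. It binds lipoprotein lipase, the enzyme that releases fatty acids from circulating triglycerides, and inactivates it. Its gene is a target of the fatty acid receptors of the PPAR family and is switched on in muscle by fatty acids, fasting and exercise. Cleaved forms of the protein have been linked to integrins, cell adhesion and vascular permeability.

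Transcripts were measured by 3′ end sequencing of total RNA, so a read marks the end of a transcript. A gene's level is given in CPM, its counts per M counts of a library's total (M, mega) after scaling by edgeR's TMM method. Library totals at day 6 were 6.101, 7.88, 7.58 and 9.07 M counts with ANGPTL4 (replicates 1 to 4) and 12.5, 10.3, 12.6 and 9.85 M counts with vehicle. Every ANGPTL4 library was thus shallower than every vehicle library, a difference in means of -3.64 M counts (2-sided exact permutation p = 0.0286, the smallest that 4 against 4 libraries allow). ANGPTL4 replicate 1 stood apart from the other 3 libraries of its group. On the first principal component of the 8 libraries, which held 26.9% of the variance, it lay at -23.5, against 13.7 to 16.7 for the other 3 and -11.5 to 2.21 for vehicle. Malat1, a nuclear noncoding RNA, took 1.22% of its counts, against 0.360% to 0.461% in the other 3 and 0.481% to 1.12% with vehicle. Results that rest on that library are given with and without it, or with their range over other ways of fitting the data. All 10 markers of myoblasts and myotubes were detected, among them Myod1, Myog, Des and Mymk, each above 100 CPM in all 8 libraries.

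Few genes were called in the fit of all groups. A gene was called where edgeR's quasi-likelihood test gave a p under 0.05 after Benjamini-Hochberg adjustment over the 12994 genes tested. With all 6 groups fitted together, 3 genes were called, which is 0.0231% of those tested. Naalad2 and Dld rose, Sik1 fell, and none of the 3 moved by as much as 2-fold. Without adjustment, 1513 genes (11.6%) had a p under 0.05, where about 5% would if no gene differed. Of them 777 were higher with ANGPTL4 and 736 lower. The median log2 fold change (log2FC, ANGPTL4 over vehicle) of all genes tested was -0.01, with quartiles of -0.10 and 0.08. In RNA from whole cultures, a lower level in every cell and a lower number of cells that express a gene cannot be told apart.

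Naalad2 encodes a membrane peptidase of the glutamate carboxypeptidase family. Its level was 18.2, 18.0, 18.3 and 16.1 CPM in the ANGPTL4 libraries and 11.8, 11.8, 13.4 and 12.6 CPM in the vehicle libraries. The groups did not overlap, and replicate 4 was the lowest of the ANGPTL4 libraries. The log2FC was 0.51 (95% interval 0.33 to 0.69, adjusted p = 0.0314), from 107 to 165 counts in a library. At day 2 the gene did not pass the test (log2FC -0.08, adjusted p = 0.554). With all groups fitted, the test of the difference between the days called it (day 6 minus day 2, 0.59, adjusted p = 0.0382). In the LA libraries of day 6 it averaged 20.2 ± 0.385 CPM (SD, n = 4). The direct test of ANGPTL4 against LA did not call it (log2FC -0.20, adjusted p = 0.115).

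Dld encodes dihydrolipoamide dehydrogenase, the flavoprotein that the pyruvate, alpha-ketoglutarate and branched-chain ketoacid dehydrogenase complexes share. It stood at 277, 300, 290.3 and 289.6 CPM with ANGPTL4 and at 242, 239, 247 and 243 CPM with vehicle. The vehicle values lay within a narrow range and all 4 ANGPTL4 values above it. The log2FC was 0.25 (0.16 to 0.35, adjusted p = 0.0359). It was also higher with ANGPTL4 than with LA, which averaged 250.1 ± 8.84 CPM (log2FC 0.21, adjusted p = 0.00169). The effect at day 2 was 0.05 and its difference from that at day 6 was not called (0.20, adjusted p = 0.0995).

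Sik1 encodes salt-inducible kinase 1, which phosphorylates the CRTC coactivators of CREB and class IIa histone deacetylases. Its level was 161, 138, 145 and 143 CPM with ANGPTL4 and 185, 167, 184 and 175 CPM with vehicle. The groups did not overlap, and the highest ANGPTL4 value was that of replicate 1. The log2FC was -0.28 (-0.39 to -0.17, adjusted p = 0.0467). Sik1 was the only 1 of the 3 also called at day 2, where it fell by 0.21 on the log2 scale (adjusted p = 0.0115). With LA at day 6 it averaged 139 ± 4.15 CPM, and the direct test of ANGPTL4 against LA did not call it (log2FC 0.08).

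**Figure D1:**
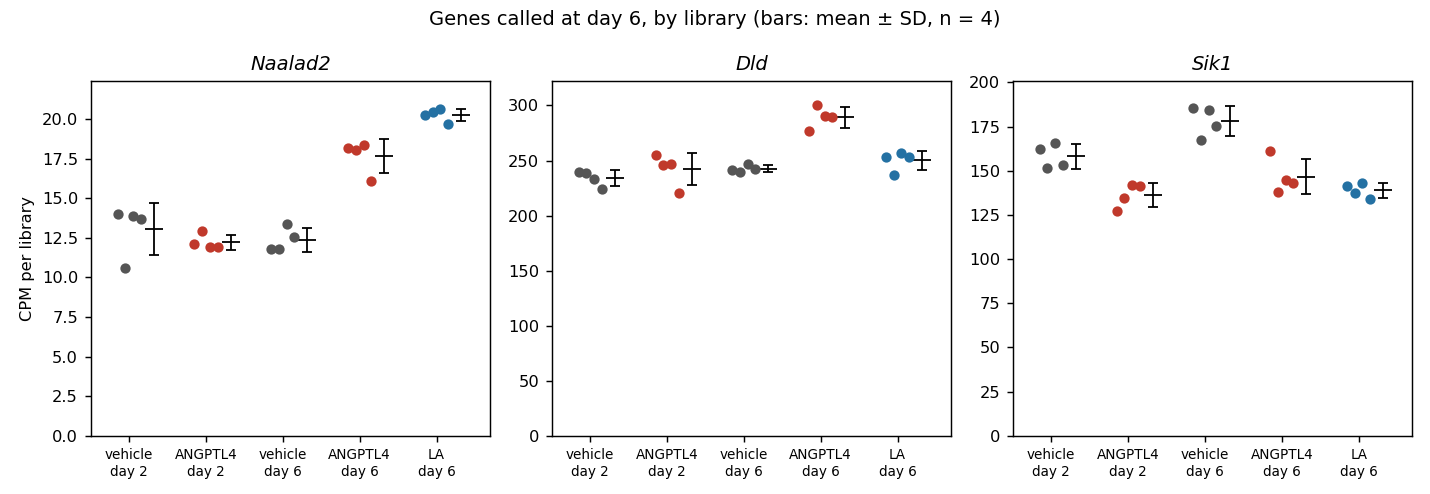
CPM of Naalad2, Dld and Sik1 in each library of 5 groups (linear axis from 0; points are libraries, bars are mean ± SD, n = 4). At day 6 the 4 ANGPTL4 points of Naalad2 (16.1 to 18.3) and Dld (277 to 300) lie above all vehicle points, and those of Sik1 (138 to 161) lie below.

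The 3 calls were close to the threshold. Over 19 other ways of fitting the data, the log2FC of Naalad2 ran from 0.46 to 0.56 and it was called in 12, that of Dld from 0.24 to 0.28 with calls in 8, and that of Sik1 from -0.33 to -0.25 with calls in 6. Their adjusted p in those fits ran up to 0.286, 0.287 and 0.287. With a library left out in turn, the number of genes called was 7 without ANGPTL4 replicate 1, 2 without vehicle replicate 4, 1 without ANGPTL4 replicate 4 or vehicle replicate 3, and 0 without any other.

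More genes were called by 2 of the other fits. With only the 8 libraries of this comparison fitted, edgeR called 83 of 12132 genes (0.684%), of which 68 rose and 15 fell. DESeq2 on all 24 libraries called 87 (0.670%), of which 69 rose and 18 fell, and gave no adjusted p for 7054 genes. The calls shared 52 genes, 62.7% of the first list and 59.8% of the second, with 46 higher and 6 lower. Their rises in the fit of all groups were small, 0.18 to 0.41 on the log2 scale, and their falls -0.22 to -0.33. With ANGPTL4 replicate 1 left out as well, the fit of only these groups called 241 genes, 157 higher and 84 lower, and 74 of them were among the 83 (89.2% of the 83).

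The genes next to the threshold in the fit of all groups, named here after their values were seen, were Psmc6, Emc2, Dynlt3 and Lonp2, each with an adjusted p of 0.0856 and each called in both other fits. Psmc6, an ATPase of the proteasome's regulatory particle, stood at 288, 328, 324 and 322 CPM with ANGPTL4 and 246, 261, 263 and 279.6 CPM with vehicle (log2FC 0.27). Emc2, a subunit of the endoplasmic reticulum membrane protein complex, stood at 187, 215, 194 and 211 CPM against 159, 173, 166 and 176 CPM (0.26). Dynlt3, a light chain of dynein, stood at 271, 313, 294 and 287 CPM against 229, 256, 243 and 239 CPM (0.27). Lonp2, a protease of peroxisomes, gave a log2FC of 0.23. None of the 4 overlapped between the groups, which choosing genes close to the threshold favours. The share of all genes tested without overlap is not given here, so a lack of overlap describes the values and adds no support. Without ANGPTL4 replicate 1, edgeR with all groups fitted called Psmc6 (0.31, adjusted p = 0.0326), Emc2 (0.30, 0.0326) and Dynlt3 (0.30, 0.0327).

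Among the other shared rises, also named after their values were seen, Cp had the highest log2FC. Cp, ceruloplasmin, a copper-containing ferroxidase, stood at 150.4, 159.5, 185 and 151 CPM with ANGPTL4 and 105, 123, 132 and 126 CPM with vehicle (log2FC 0.41, adjusted p = 0.109 with all groups fitted, 0.0384 with only these groups and 0.00439 in DESeq2). Nox4, an NADPH oxidase that makes hydrogen peroxide, stood at 53.2, 55.0, 63.0 and 54.5 CPM against 38.6, 44.9, 43.2 and 49.4 CPM (log2FC 0.36). Ifi202b, an interferon-inducible gene with near-identical copies and so an uncertain value, had a log2FC of 0.39. The next 4 by log2FC were Mphosph10, a protein of the small-subunit processome (0.34), Rxylt1, a glycosyltransferase of dystroglycan (0.33), Ssb, the La RNA-binding protein (0.32), and Igbp1, a regulator of protein phosphatases (0.32). All 7 separated the groups without overlap, which their choice by calls likewise favours. The 5 shared falls besides Sik1 were Trim47, a ubiquitin ligase (-0.33), Erf, an ETS-family repressor (-0.32), Cx3cl1, the chemokine fractalkine (-0.30), Ckb, the brain-type creatine kinase (-0.23), and Ywhag, a 14-3-3 adaptor (-0.22). In the fit of all groups none of these 12 was called, at adjusted p-values of 0.108 to 0.124. Over the 19 other fits the adjusted p of Cp ran from 0.00439 to 0.378, that of Nox4 from 0.0129 to 0.378 and that of Ckb from 0.0215 to 0.384.

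Because Dld serves several complexes, their other subunits were set beside it, again a choice made after its value was seen. In the pyruvate dehydrogenase complex, which turns pyruvate into acetyl-CoA, Pdha1, the catalytic alpha subunit, stood at 338, 340.2, 305 and 300 CPM with ANGPTL4 and 281, 279, 279 and 269 CPM with vehicle. These groups did not overlap, and the log2FC was 0.21 (0.10 to 0.32, adjusted p = 0.122, 0.0311 with only these groups and 0.0261 in DESeq2). Pdhx, which tethers Dld to the complex, gave 0.21 (adjusted p = 0.132), with vehicle replicate 1 at 45.8 CPM and the lowest ANGPTL4 library at 45.8 CPM. Pdp1, the phosphatase that activates the complex, stood at 55.2, 57.1, 57.7 and 60.7 CPM against 47.2, 51.5, 48.1 and 51.6 CPM, with no overlap (0.22, adjusted p = 0.122, and 0.0387 in DESeq2). The remaining core subunits were nearer to no difference: Pdhb, the beta subunit, at 0.05 (-0.07 to 0.17) and Dlat, the acetyltransferase, at 0.01 (-0.10 to 0.11). Of the inhibitory kinases Pdk1, Pdk2, Pdk3 and Pdk4, the log2FC ran from -0.01 to 0.11 and none was called in any of the 19 other fits. Over those fits the adjusted p ran from 0.0261 to 0.378 for Pdha1 and from 0.0387 to 0.677 for Pdp1.

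**Figure D2:**
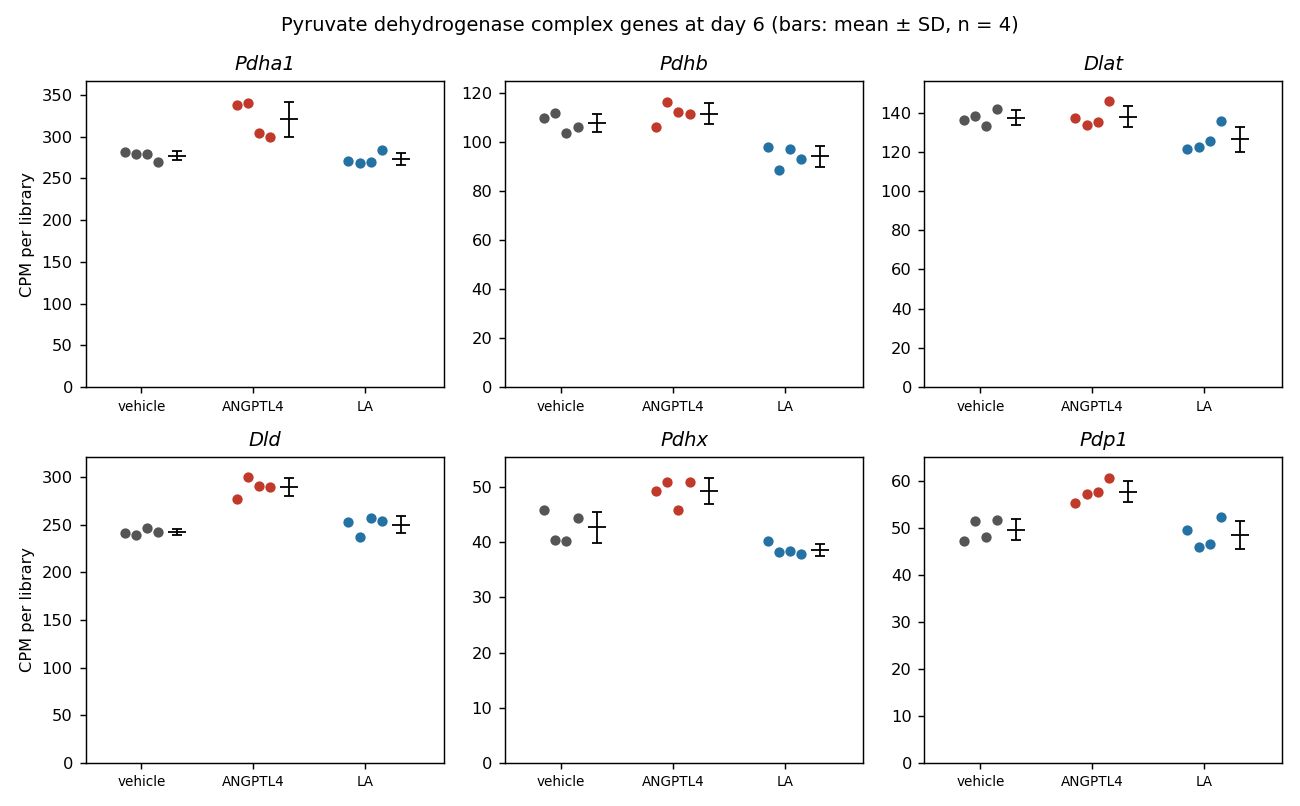
CPM of 5 subunit genes of the pyruvate dehydrogenase complex and of its phosphatase gene Pdp1 in each library of day 6 (linear axes from 0; points are libraries, bars are mean ± SD, n = 4). The ANGPTL4 points of Dld, Pdha1 and Pdp1 lie above all vehicle points, while those of Pdhb and Dlat overlap with vehicle.

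Against LA, the libraries with ANGPTL4 were higher in Pdha1 (log2FC 0.23, adjusted p = 0.00274), Pdhx (0.35, 6.01e-05), Pdhb (0.25, 0.00448) and Pdp1 (0.25, 0.00181) as well as in Dld. That test used the same ANGPTL4 libraries as the comparison with vehicle, so it is not independent of it. Subunits of the other complexes that use Dld overlapped between ANGPTL4 and vehicle. Ogdh and Dlst of the alpha-ketoglutarate complex gave 0.02 and 0.04, Dbt of the branched-chain complex 0.03, and Gcsh of the glycine cleavage system 0.08. Sucla2, the ATP-forming beta subunit of succinyl-CoA synthetase in the citric acid cycle, stood at 187, 187.5, 179 and 183 CPM with ANGPTL4 and 159, 157, 162 and 162 CPM with vehicle. It was among the 52 shared calls (log2FC 0.20, adjusted p = 0.108 with all groups fitted, 0.0124 to 0.475 in the others).

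Relatives and substrates of Sik1 were also compared after its value was seen. The related kinases gave 0.02 (Sik2, -0.19 to 0.22) and -0.03 (Sik3, -0.15 to 0.10). Crtc1, a coactivator that Sik1 phosphorylates, stood at 30.6, 31.9, 32.4 and 32.3 CPM with ANGPTL4 and 36.8, 33.3, 35.1 and 36.7 CPM with vehicle, without overlap but not called (log2FC -0.16, adjusted p = 0.353). Crtc2 and Crtc3 gave -0.08 and -0.09, and the histone deacetylase genes Hdac4 and Hdac5 gave -0.15 and -0.08, all with overlap.

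Genes of fatty acid handling gave no call against vehicle. Angptl4 itself, whose transcript comes from the cells and not from the added protein, stood at 18.0, 17.5, 18.6 and 22.1 CPM with ANGPTL4 and 20.5, 21.9, 20.2 and 20.7 CPM with vehicle. Replicate 4 lay above all vehicle libraries and the other 3 below (log2FC -0.12, -0.28 to 0.05). Lpl, the lipase that the protein inhibits, was low in both groups, at 4.42, 4.97, 7.28 and 5.18 CPM against 3.77, 5.28, 8.34 and 6.85 CPM. Its interval was wide (log2FC -0.14, -0.88 to 0.60), and without vehicle replicate 3 the value was 0.08. Cpt1a, which admits fatty acids to mitochondria, stood at 73.9, 83.9, 79.8 and 83.5 CPM against 73.3, 70.9, 76.2 and 68.6 CPM (log2FC 0.15, 0.05 to 0.26, adjusted p = 0.208). Pdk4, which diverts pyruvate from oxidation, gave 0.04 (-0.21 to 0.29), and Plin2, a coat protein of lipid droplets, gave 0.06 (-0.04 to 0.17).

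**Figure D3:**
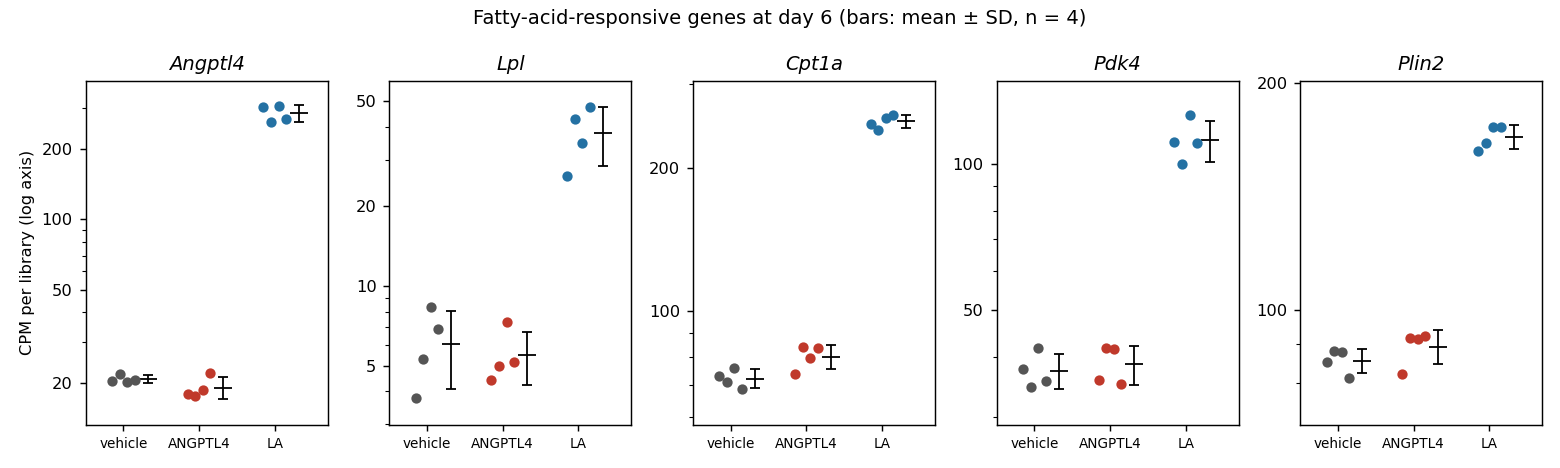
CPM of 5 genes known to respond to fatty acids in each library of day 6 (log axes; points are libraries, bars are mean ± SD, n = 4). The ANGPTL4 points lie among or next to the vehicle points for all 5 genes, and the LA points lie above both groups.

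The same 5 genes separated ANGPTL4 from LA, in a test that shares its ANGPTL4 libraries with the comparison above. Angptl4 averaged 285 ± 22.8 CPM with LA and 19.1 ± 2.06 CPM with ANGPTL4 (log2FC -3.89, adjusted p = 1.42e-29, edgeR). For Lpl the log2FC was -2.77 (adjusted p = 6.96e-07), for Cpt1a -1.63 (2.06e-22), for Pdk4 -1.53 (1.38e-09) and for Plin2 -0.92 (1.4e-14). In all 5 genes every LA library lay above every ANGPTL4 library. Over all genes tested, 1809 differed between ANGPTL4 and LA, 951 higher with ANGPTL4 (7.32%) and 858 lower (6.60%), of which 21 and 127 differed at least 2-fold. With library totals alone for scaling, 675 of 1818 were higher.

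Lists of genes by function were then read across the comparison. No member of the 41 lists was called by edgeR with all groups fitted. The counts below are therefore members with an unadjusted p under 0.05 in that test, to be set beside 777 higher and 736 lower of 12994 genes, and members called by the fit of only these groups or by DESeq2 where there were any. Of the 43 tested genes of PPAR targets and fatty acid metabolism, 3 were higher and 1 lower, and the median log2FC was 0.00. Etfdh, which passes electrons from fatty acid oxidation to ubiquinone, was highest at 0.18 (adjusted p = 0.141). Against LA, 13 genes of that list were lower with ANGPTL4 and 1 higher. Of 24 sterol synthesis genes 2 were lower, with a median of -0.01, Srebf2, the master regulator of the pathway, at -0.13. Of 14 genes of fatty acid synthesis and desaturation 2 were lower, with Srebf1, their main regulator, at -0.19.

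Regulators of myogenesis lay close to vehicle. Of 19 tested, 3 were lower and none higher, with a median of -0.02. Myod1, which commits cells to the muscle fate, stood at 129, 135, 129 and 134 CPM with ANGPTL4 and 144, 136, 138 and 142 CPM with vehicle. The groups did not overlap, but the gene was not called (log2FC -0.09, -0.20 to 0.02, adjusted p = 0.540). Myog, which drives terminal differentiation, gave -0.02 (-0.15 to 0.11), Mef2c, its partner factor, gave 0.08 (-0.06 to 0.23), and Myf5, a factor of proliferating myoblasts, gave -0.14 (-0.42 to 0.14). Srf, which activates actin and other muscle genes, gave -0.20 (-0.32 to -0.08, adjusted p = 0.144). The list ran from Id3, an inhibitor of myogenic factors, at -0.30 to Tcf12, an E-protein partner, at 0.09. Of 17 genes of satellite and reserve cells 2 were lower, from Jag1, a Notch ligand, at -0.22 to Pax7, which marks satellite cells, at 0.20 (-0.00 to 0.40).

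**Figure D4:**
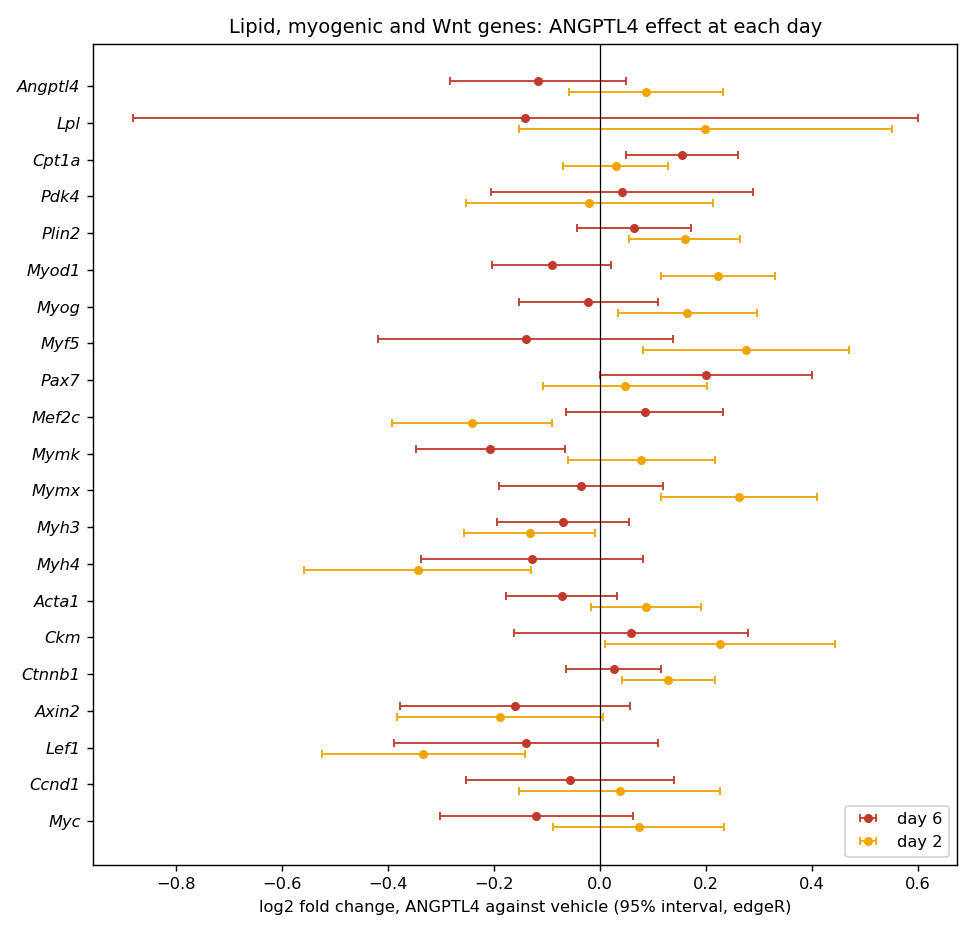
Log2FC of ANGPTL4 against vehicle with 95% intervals from edgeR for 21 genes of fatty acid handling, muscle differentiation and the Wnt pathway, at day 6 (red) and day 2 (orange). Most day 6 intervals include 0, that of Lpl is the widest, and Myod1 and Mef2c lie on opposite sides of 0 at the 2 days. The difference between the days was not called for Myod1 or Mef2c.

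Genes of fusion and of the contractile apparatus gave no call. Of 16 fusion genes 1 was lower, Mymk, the membrane protein myomaker, at -0.21 (-0.35 to -0.07, adjusted p = 0.208), and its partner myomixer, Mymx, was at -0.04. Cdon, a cell-surface receptor of the cadherin complexes, was at -0.07 and Tmem182, an inhibitor of fusion, at 0.12. Of 58 sarcomere genes 10 were higher and 4 lower, with a median of 0.07. The 10 troponin and tropomyosin genes tested all had positive values, with a median of 0.13, where 47.1% of all genes tested were positive. Myh3 (-0.07), Myh4 (-0.13) and Acta1 (-0.07), which encode embryonic and fast myosin and skeletal actin, lay below 0, as did Myh7b, a slow-type myosin, at -0.25. Myl1, a myosin light chain, was called higher by the fit of only these groups (log2FC 0.16, adjusted p = 0.0384). Flnc, filamin of the Z-disc, was called lower by DESeq2 (-0.16, 0.0282). Over the 19 other fits the adjusted p ran up to 0.508 for Myl1 and 0.393 for Flnc.

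The highest values of the sarcomere, coupling and dystrophin lists moved when vehicle replicate 1 was left out. Xirp2, an actin-binding protein of the Z-disc, stood at 41.6, 46.8, 48.5 and 52.6 CPM with ANGPTL4 and at 16.8, 36.8, 36.3 and 46.4 CPM with vehicle (log2FC 0.50, 0.26 without vehicle replicate 1). Trdn, triadin of the calcium release unit, was the highest of 35 genes of excitation-contraction coupling at 0.45, and 0.26 without that library, where it stood at 43.0 CPM against 82.7 to 89.2 CPM in the other vehicle libraries. Dmd, dystrophin, led the 14 genes of its complex at 0.21 and gave -0.02 without it. Ttn, titin, was instead high in ANGPTL4 replicate 1, at 17282 CPM against 9786 to 10044 CPM in the other 3 and 10193 to 15666 CPM with vehicle. Those other 3 lay below all vehicle libraries. The log2FC of Ttn was -0.07, and it ran from -0.32 to 0.06 over the 19 other fits, with a call in 0. In the coupling list 2 genes were higher and 5 lower, with a median of -0.08. Scn4a, the muscle sodium channel, was lowest at -0.29 and was called by the fit of only these groups (adjusted p = 0.0384, up to 0.484 in the 19 other fits). The dystrophin list had none in either direction at an unadjusted p under 0.05.

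In muscle energy metabolism 1 of 21 genes was higher and 1 lower. The lower was Ckb, named above, at 88.2, 81.2, 83.6 and 83.9 CPM with ANGPTL4 and 103, 99.4, 91.9 and 99.6 CPM with vehicle, without overlap. The higher was Mb, myoglobin, at 526, 567, 517 and 509.7 CPM against 480.0, 486, 412 and 446 CPM, also without overlap (log2FC 0.22, adjusted p = 0.206, 0.0347 with only these groups and up to 0.489 in the others). Ckm, the muscle creatine kinase, gave 0.06 (-0.16 to 0.28), and Slc2a4, the insulin-responsive glucose transporter, at 0.654 to 2.29 CPM, gave -0.44. Of 39 genes of oxidative phosphorylation 4 were higher and 1 lower, with a median of -0.03, from Uqcrq, a small subunit of complex III, at -0.27 to Cycs, cytochrome c, at 0.20. Uqcrc2, a core subunit of complex III, was called by DESeq2 (log2FC 0.16, adjusted p = 0.0494, 0.135 with all groups fitted and up to 0.704 in the others).

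The series' title names Wnt signalling, in which ligands bind Frizzled receptors and stabilise beta-catenin. Of 12 tested genes of Wnt ligands and their secretion 2 were lower, with a median of -0.16. Porcn, which acylates the ligands, stood at 70.01, 76.0, 73.8 and 70.8 CPM with ANGPTL4 and 82.3, 81.9, 77.9 and 86.0 CPM with vehicle, without overlap (log2FC -0.17, adjusted p = 0.207). Wnt5a, the lowest of the list at -0.62, was under 2 CPM in every library. Of 20 receptor genes 4 were lower and none higher, with a median of -0.01. Fzd2, a Frizzled receptor, stood at 79.0, 77.3, 72.0 and 68.7 CPM against 94.3, 88.1, 82.2 and 82.0 CPM, without overlap, and was called by DESeq2 (log2FC -0.23, adjusted p = 0.0446, 0.122 with all groups fitted and up to 0.418 in the others). The receptor list ran from Fzd9 at -0.47 to Fzd4 at 0.25, both at or under 11.4 CPM.

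The secreted antagonists and the intracellular steps of the pathway gave no call. Of 8 antagonists 1 was lower, with Sfrp1 at -0.34 (1.62 to 4.69 CPM) and Sfrp2 at 0.03, and against LA 6 of the 8 were lower with ANGPTL4. In the list of beta-catenin and its destruction complex 2 of 18 were lower, with a median of -0.01. Ctnnb1, beta-catenin, gave 0.03 (-0.06 to 0.11), an interval within 1.5-fold of no difference in both directions, and Pygo2, a nuclear cofactor, was lowest at -0.23 (adjusted p = 0.229). Of 20 targets and TCF/LEF factors 3 were lower and none higher, with a median of -0.09. The feedback target Axin2 gave -0.16 (-0.38 to 0.06), Lef1 -0.14 (-0.39 to 0.11), Ccnd1, cyclin D, -0.06 (-0.25 to 0.14) and Myc -0.12 (-0.30 to 0.06). The extremes were Fosl1, under 2 CPM, at -0.83 and Bmp4 at 0.17.

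In growth signalling the IGF axis gave no call with all groups fitted. Igf2, the growth factor that myoblasts secrete as they differentiate, stood at 267, 251, 221 and 269 CPM with ANGPTL4 and at 381, 340, 311 and 269 CPM with vehicle. Vehicle replicate 4 lay within the ANGPTL4 range, and the other 3 lay above it. The log2FC was -0.37 (-0.55 to -0.19, adjusted p = 0.122), and -0.44 without vehicle replicate 4, where it was called (adjusted p = 0.0444). DESeq2 called it with all libraries (adjusted p = 0.0126), and the fit of only these groups did not (0.202), and the highest over the 19 other fits was 0.378. In the IGF axis 3 of 18 genes were lower and none higher, among them Igfbp5, which binds IGFs, at -0.13 (adjusted p = 0.387). Of 21 genes of TGF-beta, BMP and myostatin signalling 1 was higher and 4 lower, with a median of -0.01.

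In the ATF4 group of amino acid and stress genes 5 of 20 were lower and none higher, with a median of -0.14. Of the 20 values 18 were below 0, where 52.9% of all genes tested were. Slc7a5, an amino acid transporter, stood at 122, 129.6, 126 and 141 CPM with ANGPTL4 and 169, 155, 144 and 137 CPM with vehicle, with overlap, and was called by DESeq2 (log2FC -0.22, adjusted p = 0.0261, 0.122 with all groups fitted and up to 0.569 in the others). Phgdh, of serine synthesis, gave -0.21 and Atf3, under 3 CPM, -0.56. Among 19 heat shock genes Hsp90aa1 (0.19, adjusted p = 0.0270) and Hspa8 (0.17, 0.0499) were called higher by the fit of only these groups, with adjusted p up to 0.529 and 0.728 in the others, and Hspa1b, which has a near-identical copy, was lowest at -0.28. Of 28 proteasome genes 4 were higher and none lower, with a median of 0.06. Of 76 cytosolic ribosomal protein genes, whose values are uncertain because near-identical copies exist, 1 was higher, with a median of 0.02. Of 30 mitochondrial ribosomal protein genes 3 were higher, with a median of 0.01. Of 23 immediate early genes 5 were lower, with a median of -0.10, and of 27 oxidative stress genes none was on either side.

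In the cell cycle list 1 of 37 genes was higher and 3 lower, with a median of -0.06. Its extremes were Birc5, survivin, at -0.34 and Cenpf, a kinetochore protein, at 0.33. Cenpf stood at 26.9 CPM in vehicle replicate 1 and at 72.0 to 87.0 CPM in the other 7 libraries, and gave 0.07 without that library. Mki67, a marker of dividing cells, likewise went from 0.18 to 0.05. Of 44 genes of extracellular matrix 1 was higher and 1 lower, with a median of -0.02, from Lum, a small proteoglycan, at -0.38 to Postn, periostin, at 0.43. Postn stood at 694, 869, 822 and 766 CPM with ANGPTL4 and at 547, 684, 475 and 632 CPM with vehicle, without overlap but not called (adjusted p = 0.504). Fn1, fibronectin, gave 0.17 (-0.01 to 0.35), Col1a1 -0.26 (-0.59 to 0.08) and Col3a1 -0.00 (-0.12 to 0.11). In this list 23 genes were lower with ANGPTL4 than with LA and 1 higher. Of 22 laminins, integrins and focal adhesion genes, the class linked to cleaved ANGPTL4, 1 was higher and 3 lower, from Lama4 at -0.24 to Itgb5 at 0.13.

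The remaining lists were cell cycle exit inhibitors, atrophy and autophagy, hypoxia, interferon and antigen presentation, NF-kB and cytokines, and noncoding transcripts. Their medians were -0.05, 0.01, 0.00, -0.01, -0.08 and -0.16, with at most 2 members on either side at an unadjusted p under 0.05. Markers of other cells ranged widely in level, with mesenchymal genes that the line itself expresses at the high end. Of 14 fibroblast markers 11 were tested, with 1 lower, and their summed level was 9381 to 10054 CPM with ANGPTL4 and 9601 to 10526 CPM with vehicle. The adipocyte markers Adipoq, Cfd, Plin1 and Fabp4 were not in the table analysed, and the 3 of 10 that were tested summed to 24.3 to 31.3 CPM and 25.2 to 30.8 CPM. Macrophage markers summed to at most 7.28 CPM, with 3 of 8 tested, and the endothelial list had 1 of 8, Vwf, at 0.944 to 2.55 CPM. Of 8 smooth muscle markers 6 were tested and none was on either side, with Acta2 at 1648 to 1900 CPM and Tagln at 167 to 212 CPM. Of 10 bone and cartilage markers 4 were tested with 2 lower, among them Col10a1 (-1.34, at 0.392 to 2.54 CPM). The others tested were Runx2 (63.6 to 78.7 CPM), Sox9 (33.8 to 43.0 CPM) and Omd (5.68 to 15.2 CPM).

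The size of difference that these libraries could show depended on the level of a gene. The 95% interval of the log2FC lay within 2-fold of no difference in both directions for 11976 of the 12994 genes (92.2%) and within 1.5-fold for 10521 (81.0%). At 100 CPM and over, 99.2% of 2460 genes lay within 1.5-fold. Between 10 and 100 CPM, 98.7% of 6617 lay within 1.5-fold. Under 1 CPM 16.8% of 803 lay within 2-fold, and for the others the interval reached past 2-fold in at least 1 direction.

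At day 2 the same protein had given many more calls against vehicle, in libraries that this comparison does not share. Totals there were 13.2 to 20.6 M counts with ANGPTL4, deeper than at day 6, and 9.85 to 14.5 M counts with vehicle. Malat1 took 0.447% to 1.20% of the day 2 counts with ANGPTL4 and 1.44% to 2.16% with vehicle. With counts thinned to the smallest library, 531 genes were called at day 2 and 0 at day 6. With all groups fitted, 502 genes rose at day 2 (3.86%) and 774 fell (5.96%). The share of calls that were higher moved from 39.3% to 27.1% with DESeq2 size factors and to 54.2% with library totals. With only the groups compared, 95 of 685 calls were higher (13.9%). The count of 1276 was 712 without vehicle replicate 4 of day 2 and 821 without ANGPTL4 replicate 4 of day 2, with 271 and 161 of them higher. Of the 502 that rose at day 2, 212 (42.2%) had a positive log2FC at day 6, with a median of -0.02, while 47.1% of all genes tested were positive. Of the 774 that fell, 536 (69.3%) were negative at day 6, with a median of -0.05, against 52.9% of all genes. Genes under 5 CPM made up 202 of the 774 and 6 of the 502. The log2FC of the 2 days correlated at r = 0.26 (Pearson) over all genes tested. Over the 10303 genes with at least 5 CPM it was 0.02. The day 6 interval excluded the day 2 value for 425 of the 502 and 565 of the 774. That count leaves out the error of the day 2 values, which belong to genes chosen for passing a threshold at day 2. The test of the difference between the days, given below, called 21 of the 502 and 9 of the 774. Sik1 was the only gene called at both days. Among the day 2 falls, 155 were at least 2-fold, and 146 of those were under 5 CPM. Myod1 rose at day 2 (0.22, adjusted p = 0.00945), Mef2c fell (-0.24, 0.0381), and neither was called at day 6. Neither was called in the test of the difference between the days, so their effects were not shown to differ by day.

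**Figure D5:**
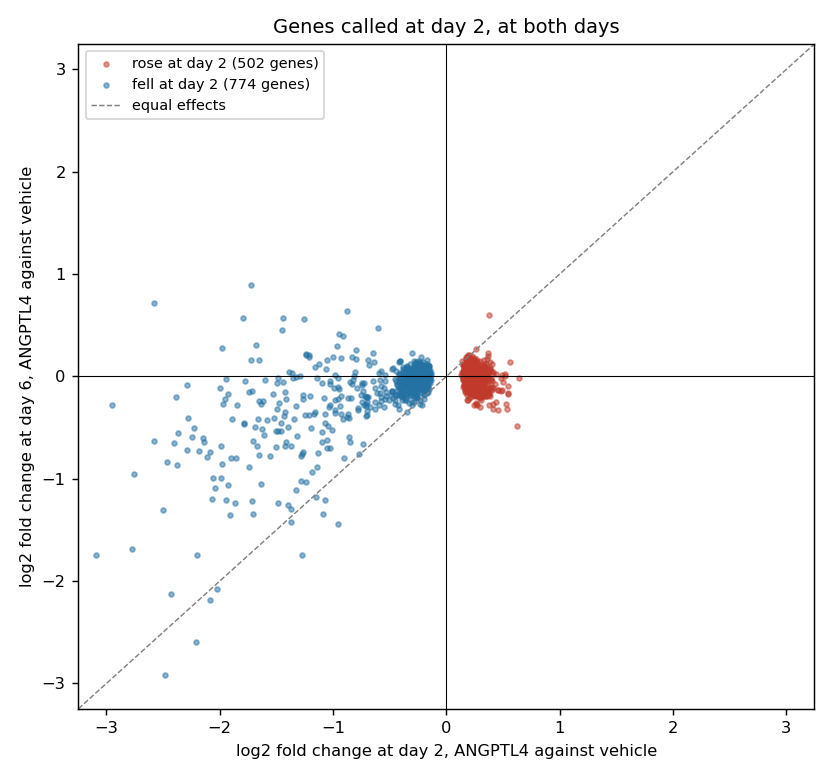
Log2FC of ANGPTL4 against vehicle at day 2 (x) and day 6 (y) for the 1276 genes called at day 2, with rises in red (502) and falls in blue (774). Points near the horizontal line had little difference at day 6, and the dashed line marks equal effects.

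The test of the difference between the days called 36 genes (0.277%), 11 with a higher effect at day 6 and 25 with a lower. With DESeq2 size factors it called 56, of which 34 were higher, and with library totals 161, of which 28 were higher. All 36 had estimates of opposite sign at the 2 days, which choosing genes by that difference favours. Of them 30 were also called at day 2 and 1, Naalad2, at day 6, and none at both days. A reversal of the effect was thus not called for any of the 36. Ckb stood at 125 to 146 CPM with ANGPTL4 and 117 to 125 CPM with vehicle at day 2, where it rose (log2FC 0.18, adjusted p = 0.0336), and its difference between days was -0.41 (adjusted p = 0.0382). Fzd2 gave -0.42 (0.0382), Srf -0.36 (0.0459), Phgdh -0.51 (0.0459), Hspa1b -0.55 (0.0382) and Cyc1, cytochrome c1 of complex III, -0.48 (0.0382). In the other direction Fmn1, a formin that nucleates actin, fell at day 2 (log2FC -0.37) and lay at 0.07 at day 6, with a difference of 0.44 (0.0354), and Usp47, a ubiquitin protease, gave 0.32 (0.0382). The extremes were B3galt2, a galactosyltransferase, at 1.14 (0.0459), Doc2g at -1.10 (0.0459) and Tmem176b at -1.05 (0.0459), all under 9 CPM. These counts rested on single libraries. The number called was 312 without ANGPTL4 replicate 1 of day 2, 131 without vehicle replicate 3 of day 6, 83 and 67 without vehicle replicates 1 and 3 of day 2, and 0 to 19 without any other.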

How the data were processed

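The values were whole-number read counts per gene for 24 libraries, as deposited by the authors, with 14693 genes and at least 51 counts per gene over all libraries. Libraries were made with a QuantSeq 3′ kit from RNA of an integrity number over 7, per the labels. The submitters' processing notes name Trimmomatic, STAR 2.7.1a, HTSeq 0.9.1, DESeq2, DESeq and the build mm39, with no settings. How genes of low count were left out, and whether strand was used in counting, was not given in the sources used here, so overlapping and antisense genes are uncertain.

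Counts were fitted in R 4.3.3 with edgeR 4.0.16 (filterByExpr, which left 12994 genes, TMM scaling, robust quasi-likelihood) on all 6 groups of 4 libraries, with 18 residual degrees of freedom and no covariate. Contrasts were ANGPTL4 minus vehicle at day 6, the same at day 2, the difference between the days, and ANGPTL4 minus LA at day 6. Intervals are 95%, from the model's standard errors. Totals of 6.101 to 12.6 M counts (M, mega) in the day 6 libraries of ANGPTL4 and vehicle set the precision, given by level in the results. The procedure was tested on simulated data.

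The alternatives were DESeq2 size factors, library totals, no filter, a filter of 5 CPM in 4 libraries, limma-voom (limma 3.58.1), DESeq2 1.42.0, a replicate block, counts thinned to the smallest library, only the groups compared, and each library left out. A fit of only these groups without ANGPTL4 replicate 1 and a covariate for variation within groups were added after seeing the data. Replicate numbers were not taken to pair libraries. The text names called genes, fixed genes of fatty acid handling, muscle differentiation and the Wnt pathway, and from each list its extremes, called members and most abundant members. Other genes are named after their values were seen. Members and lists were chosen with earlier results of these data known. Results for a few list members are not reported here.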

Additional observations from a re-analysis of the deposited data

Results flagged for a closer look

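A library was listed where its gap to the nearest of the 4 in its group exceeded Dixon's 95% critical share of the group's range. Of 246 groups examined, over 117 genes and the library measures, 18 values met this, and chance gives about 5% of groups. ANGPTL4 replicate 1 held 7 of them. It was low in Psmc6 (288 CPM, others 322 to 328) and Plin2 (82.2 CPM, others 91.4 to 92.2). It was high in Crtc2 (30.1 CPM), Ttn (17282 CPM) and Malat1 (12651 CPM), which took 1.22% of its counts, and lay at -23.5 on the first principal component.

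Vehicle replicate 1 held 5. It was low in Trdn (43.0 CPM, others 82.7 to 89.2), Cenpf (26.9 CPM), Mki67 (117 CPM) and Myf5 (6.38 CPM), and high in Srf (65.4 CPM). Vehicle replicate 3 was high in Bmp4 (49.5 CPM, others 37.0 to 37.5) and Doc2g (6.15 CPM). ANGPTL4 replicate 4 was low in Naalad2 (16.1 CPM, others 18.0 to 18.3) and high in Ifi202b (79.8 CPM). ANGPTL4 replicate 3 was high in Hdac5 (78.1 CPM) and replicate 2 in Cx3cl1 (42.9 CPM, others 39.9 to 40.2).

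With all groups fitted, edgeR's test of the difference between day 6 and day 2 called 12 of the genes described. That test called 36 genes in all, but 1 with limma-voom, 2 with thinned counts and 0 with the replicate block. None of the 12 was thus called with the replicate block. The day 6 effect exceeded that of day 2 by 0.59 for Naalad2, 0.44 for Fmn1, 1.14 for B3galt2 and 0.32 for Usp47. For the other 8 genes the difference was negative, at -0.41 for Ckb, -0.36 for Srf, -0.42 for Fzd2, -0.51 for Phgdh, -0.55 for Hspa1b, -1.05 for Tmem176b, -1.10 for Doc2g and -0.48 for Cyc1. Adjusted p-values of these 12 ran from 0.0354 to 0.0459.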

How the results depend on the processing

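At day 6 the fit of all groups called 3 genes. The count was 1 with DESeq2 size factors or library totals, 0 with counts thinned to the smallest library (903 at an unadjusted p under 0.05), 83 with only the groups compared, 241 when ANGPTL4 replicate 1 was also left out, 6 with the covariate for variation within groups and 87 in DESeq2. Leaving out 1 library gave 0 to 7. At day 2 it called 531 thinned, 685 with only the groups compared and 712 to 1192 without a library. For the difference between days it called 56 with DESeq2 size factors, 161 with library totals, 59 with the 5 CPM filter, 1 with limma-voom, 381 in DESeq2, 2 thinned and 0 to 312 without a library. Against LA it called 1024 thinned and 1272 to 1694 without a library. The difference in library totals ran from -4.12 to -3.12 M counts. The replicate block gave 0 calls at day 6 (1346 unadjusted) and 0 for the difference between days (2195 unadjusted). It gave 919 at day 2 and 1657 against LA. Same-numbered libraries of day 6 correlated at -0.06 to 0.14 in their deviations, and only replicate 2 correlated best with its own number. Why these counts moved was not tested, beyond the fewer counts or libraries that an alternative had by construction. Of 5963 alternative values for single genes and lists, 5592 kept direction and side of the threshold or, for a list, its count of calls. In 158 a gene called in neither fit changed sign, or the count of a list changed. Another 182 crossed into a call and 31 lost one. A change of sign in a gene called in either fit occurred in 0. Depth limited genes under 1 CPM most.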

Other observations

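Vehicle replicate 1 was low in a small group of genes. Of 10282 genes with a mean of at least 5 CPM, 19 lay at least 1.5-fold below every other of the 8 libraries there, against 0 to 3 in each other library. Among them were Cenpf (26.9 CPM, others 72.0 to 87.0), Cenpe (18.1 CPM, others 39.1 to 53.2) and Kif20b (14.2 CPM) of mitosis, Cep290 (11.1 CPM, others 25.9 to 41.1) of cilia, Xirp2, Trdn and Dmd of muscle, the chromatin remodeller Atrx (134 CPM, others 231 to 292), and Ogn, a matrix proteoglycan (637 CPM, others 1038 to 1501).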
